A study of Homo sapiens with 24 samples.

Results

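Clones Δ133p53β10 and Δ133p53β5 are separate cell lines that were made to express the same p53 isoform, and their transcriptomes were compared with each other. The comparison used 8 of the 24 RNA-seq libraries of the study, 4 labelled or named for each clone, chosen by their column names in the table of counts. The parent line was H1299, an established human non-small cell lung cancer line that makes no p53 protein of its own. Clones α1, α2 and α8 of that line carried Δ133p53α, clones β5 and β10 carried Δ133p53β, and the control line carried the empty vector, with 4 libraries a line. Each isoform line is 1 clone, so its libraries share every change that the founding cell held, and nothing in the labels says that libraries of a clone came from separate cultures. The p-values therefore measure the spread between libraries, which may be technical.

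The Δ133p53 isoforms start at an internal promoter and lack the first part of the full-length protein, including its transactivation domains. The β form also has a different, shorter carboxyl end that arises by alternative splicing. In tumours Δ133p53β is known for its links to invasion and inflammation. When a gene is inserted into a cell line and single cells are grown out, each clone carries its own insertion sites and its own inherited pattern of active and silent genes. A pair of clones with the same isoform therefore shows how far expression differs when the kind of isoform is held fixed. The level of the isoform in each clone was not compared here.

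One library has no certain clone. GEO's label numbers it as a further replicate of clone β10, while the count table has no such column and names the only column left over as the fourth of clone β5. It is called Δ133p53β5 replicate 4 here, the tie between label and column was made by elimination alone, and the main results are also given without it. Depth was 21720974 to 25295008 counts in Δ133p53β10 and 21827560 to 21921683 in Δ133p53β5. No 2 libraries agreed within sampling noise: over the 12 pairs within a clone, the smallest chi-square per degree of freedom was 16.3. All 8 markers fixed for H1299 were read in both clones, with summed levels of 6310 to 12500 CPM (a gene's counts scaled by library size) in Δ133p53β10 and 7470 to 10900 CPM in Δ133p53β5. Of 10 blood cell markers 6 had no read in any of the 8 libraries, PTPRC and CD3E among them, and the list summed to at most 3.05 CPM. Endothelial markers summed to 7.08 to 49.6 CPM in Δ133p53β10 and 11.3 to 33.1 CPM in Δ133p53β5, mostly EGFL7. Astrocyte markers summed to at most 5.63 CPM and fibroblast markers to at most 2.62 CPM.

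No gene was called between the clones. A gene was called when the adjusted p of edgeR's quasi-likelihood test was under 0.05 and the log2 fold change was at least 1.5, in 1 fit of all 24 libraries with 6 groups. Of 17990 genes tested, 0 were called (0%), and 0 had an adjusted p under 0.05. By edgeR 270 genes (1.5%) had an unadjusted p under 0.05, of which 165 were higher and 105 lower in Δ133p53β10. With no difference at any gene a share near 0.05 would be expected, so this fit gave fewer small p-values than that. DESeq2 called 4 genes, AMPH, FBXL7 and SH3GL2 as higher and LINC02780 as lower in Δ133p53β10, with ICAM1 past its adjusted p but under the fold threshold. limma voom called 0, with 250 at an unadjusted p under 0.05. Without Δ133p53β5 replicate 4, edgeR called 0 of 18295 genes (0%), with 370 (2.02%) at an unadjusted p under 0.05, and DESeq2 called 0, with ICAM1 alone past its adjusted p.

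A missed threshold does not show that the clones are alike, so the intervals are given. The 95% interval of the log2 difference (Δ133p53β10 minus Δ133p53β5) lay wholly between -1.5 and 1.5 for 15131 genes (84.1%), and wholly between -1 and 1 for 10133 (56.3%). Among the 14685 genes that averaged 1 CPM or more in the 8 libraries, 92.1% had an interval within 1.5 and 66.6% within 1. For genes whose interval ran past 1 in either direction, a difference of more than 2-fold was thus not excluded. Where an interval ran past 1.5, a difference beyond the call threshold was not excluded either. Without Δ133p53β5 replicate 4 the share within 1.5 was 75% of all tested genes.

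The same fit, which shares its estimate of spread over all lines, called genes between every other pair of lines. Between clones of Δ133p53α it called 93 genes (0.517%) for α2 against α1, 88 (0.489%) for α8 against α1 and 27 (0.15%) for α8 against α2. Against control, 828 genes were called for Δ133p53β10 and 777 for Δ133p53β5. Clones carrying different isoforms differed at 112 to 240 genes. The comparisons share libraries, and the difference between their counts was not tested. Lines also differed in how many libraries had a positive or a negative trend with transcript length, described below. Most were negative in α1, β5 and β10, and most were positive in α2, α8 and control. Pairs of lines thus differed in this balance, which was equal for β10 and β5, and its part in the counts was not tested.

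**Figure D1:**
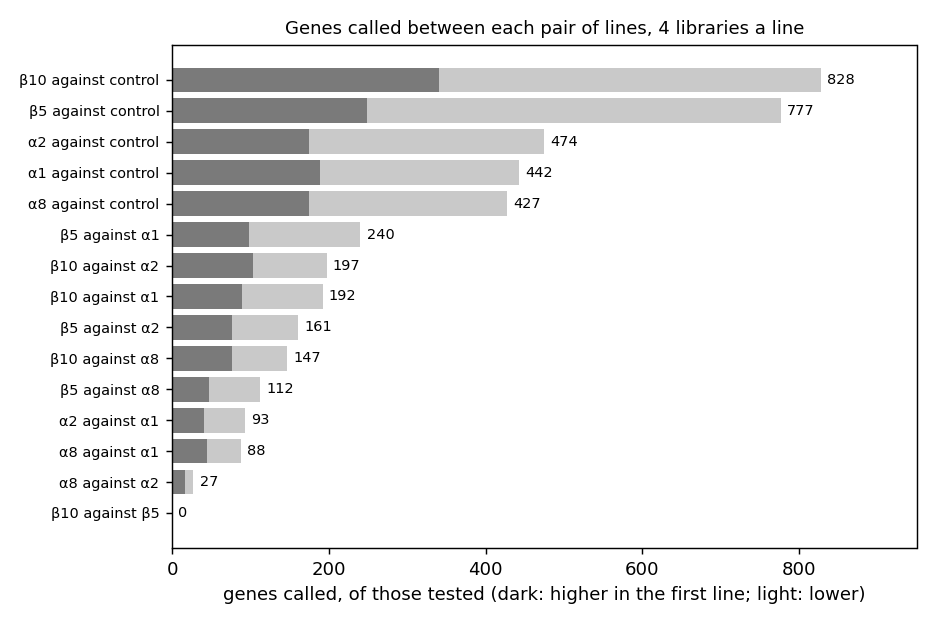
Number of genes called (x axis) between each of the 15 pairs of lines in the fit of 24 libraries, 4 a line, with genes higher in the first-named line in dark and lower in light grey. The pair β10 against β5 has 0 called genes, and the pairs of α clones have 27, 88 and 93.

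The clones took a small share of the distance between libraries. At the 500 genes of highest variance on the log2 CPM scale, the division into Δ133p53β10 and Δ133p53β5 held 0.0733 of the summed squared distances, and 26 of the 35 ways to divide 8 libraries into 4 and 4 held at least as much (exact permutation test, p = 0.743, smallest possible p = 0.0286). Without Δ133p53β5 replicate 4 the share was 0.109 (exact permutation p = 0.514). The first principal component took 68.8% of the variance and the second 11.3%. Coordinates on the third, which took 7.17%, ran from -10.44 to -1.92 in Δ133p53β10 and from 1.97 to 11.35 in Δ133p53β5, so the clones did not overlap there. As these genes and components come from the same libraries, the third component is a description.

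The libraries also differed by a trend with transcript length. In replicate 1 of each clone longer genes read higher than in the average library, with a Spearman correlation of a gene's deviation with its exon length of 0.25 in Δ133p53β10 and 0.187 in Δ133p53β5. In the other 6 libraries it was negative, from -0.26 to -0.141, so each clone held 1 library of the positive set and 3 of the negative set. That division took 0.399 of the squared distances at the same 500 genes. As the sets were defined from the counts of these same libraries, this share is a description. Within the 6 libraries of the negative set, 0 genes were called and 229 had an unadjusted p under 0.05, and when the set entered the fit of 24 libraries as a term 0 were called and 608 had an unadjusted p under 0.05 (edgeR).

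**Figure D2:**
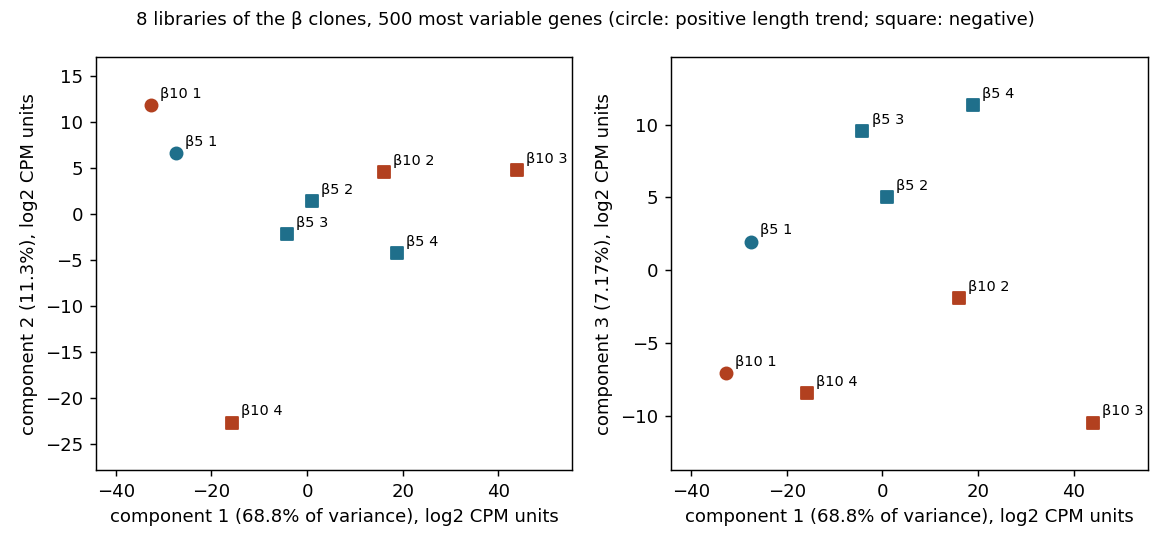
The 8 libraries on the first principal component (x axis) against the second and the third (y axes), from log2 CPM of the 500 most variable genes, with Δ133p53β10 in red, Δ133p53β5 in blue, circles for the set with a positive length trend and squares for the negative set. Replicates 1 lie together at the left, β10 replicate 4 lies alone at -22.63 on the second component, and the clones part on the third.

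Since no gene passed the test, the genes described next are the 12 with the smallest p, chosen after their values were seen. They have the largest differences relative to spread by construction and stand as descriptions. AMPH, FBXL7, SH3GL2, SESN3, ESX1, ALDH1A2, ICAM1, ENSG00000280441 and EEF1A1P11 read higher in Δ133p53β10, and LINC02780, ENSG00000284703 and CTSL read lower.

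AMPH and SH3GL2 encode amphiphysin and endophilin A1, BAR-domain proteins that bind curved membrane during endocytosis. AMPH (chromosome 7, 38383704 to 38631420, minus strand) read 1.37, 1.11, 0.894 and 1.74 CPM in Δ133p53β10 and 0.469, 0.227, 0.366 and 0.154 CPM in Δ133p53β5. All of the Δ133p53β10 libraries lay above all of the Δ133p53β5 libraries. The log2 difference was 2.04 ± 0.375 (SE, n = 4 and 4; adjusted p = 0.264, edgeR), and 1.81 without Δ133p53β5 replicate 4 (adjusted p = 0.623). Control held 2.41 ± 0.404 CPM and clones α1, α2 and α8 held means of 1.82, 1.61 and 2.11 CPM, so Δ133p53β5 was the line with the lowest mean. AMPH was lower than control in Δ133p53β5 by a log2 fold change of -2.95 (adjusted p = 1.8e-05, edgeR), and in Δ133p53β10 the value was -0.91 (adjusted p = 0.0836).

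SH3GL2 (chromosome 9, 17579066 to 17797124, plus strand) read 2.36, 1.98, 1.00 and 1.87 CPM in Δ133p53β10 and 0.597, 0.727, 0.595 and 0.308 CPM in Δ133p53β5, again without overlap. The log2 difference was 1.68 ± 0.355 (adjusted p = 0.451, edgeR), and 1.46 without Δ133p53β5 replicate 4 (adjusted p = 0.961). Here Δ133p53β5 lay near the control mean of 0.403 CPM, while Δ133p53β10, at 1.80 ± 0.575 CPM (SD, n = 4), lay among the α clones, whose means were 1.46, 2.18 and 1.65 CPM. Both genes were read at 3 to 57 reads a library.

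FBXL7, an F-box protein that selects substrates for ubiquitin ligases, read 0.621, 1.16, 1.05 and 0.125 CPM in Δ133p53β10 and 0.128, 0.0455, 0 and 0.154 CPM in Δ133p53β5 (chromosome 5, 15500180 to 15939795, plus strand). Replicate 4 of Δ133p53β10 lay within the range of the other clone, and the other libraries of Δ133p53β10 lay above it. The log2 difference was 3.09 ± 0.59 (adjusted p = 0.264, edgeR), and 3.48 without Δ133p53β5 replicate 4 (adjusted p = 0.623). Left out of the fit, replicate 4 of Δ133p53β10 made FBXL7 the 1 gene that edgeR called, at 3.45 (adjusted p = 0.0089). Control held 4.28 ± 0.65 CPM, and FBXL7 was below it in Δ133p53β10 (log2 fold change -2.54, adjusted p = 0.000793) and in Δ133p53β5 (-5.63, adjusted p = 1.24e-06).

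LINC02780 and ENSG00000284703 are neighbouring long non-coding genes of chromosome 1, at 3976133 to 4012704 on the plus strand and 4012921 to 4019508 on the minus strand. LINC02780 had no read in any library of Δ133p53β10 and 9, 7, 5 and 3 reads in Δ133p53β5, or 0.384, 0.318, 0.229 and 0.154 CPM. Against a floor of 3 reads over the 4 libraries together, it was 8.1-fold lower in Δ133p53β10, and 9.14-fold lower without Δ133p53β5 replicate 4. The floor allows for counting error in Δ133p53β10 only, and the few reads of Δ133p53β5 were taken as they stand. ENSG00000284703 likewise had no read in Δ133p53β10 and 4, 2, 4 and 1 reads in Δ133p53β5, which is 3.71-fold lower in Δ133p53β10 on the same floor. Their adjusted p in edgeR was 0.542 each. In the α clones LINC02780 held means of 4.82, 6.76 and 9.55 CPM and in control 0.0282 CPM, so both β clones lay far below the α clones.

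**Figure D3:**
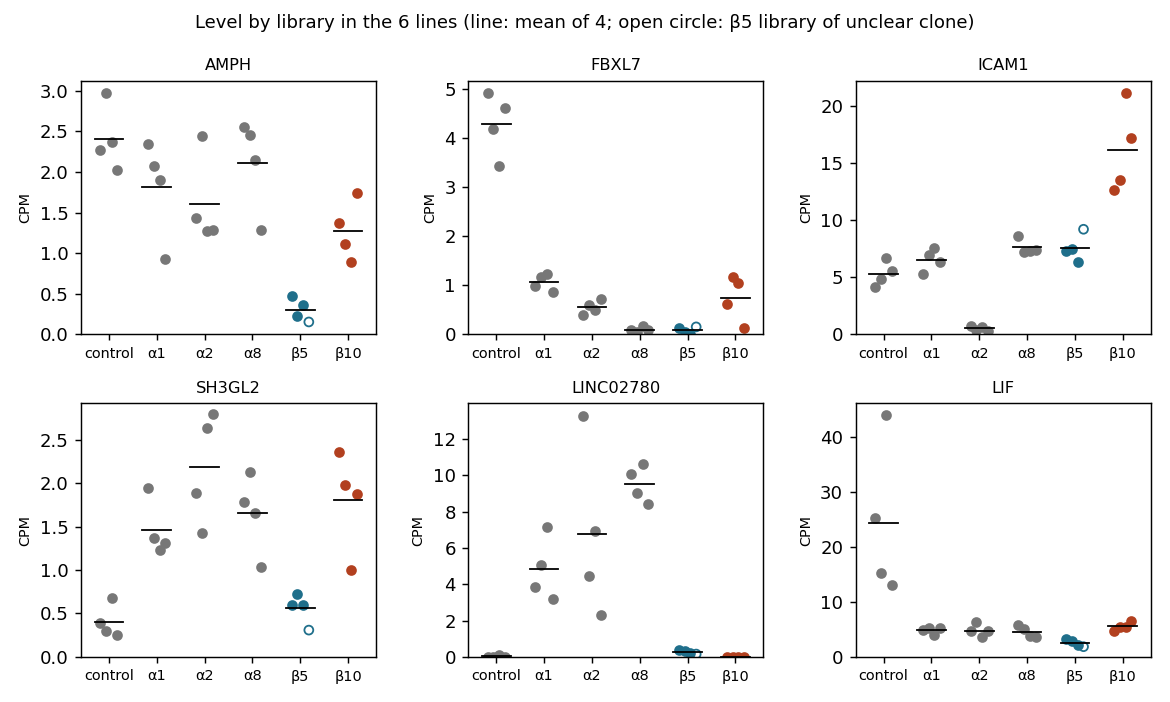
CPM by library (y axes, from 0) of 6 genes in the control, α1, α2, α8, β5 and β10 lines (x axis), with a line at the mean of 4 and an open circle for β5 replicate 4. AMPH, ICAM1, SH3GL2 and LIF of β10 (red) lie above all β5 libraries (blue), FBXL7 overlaps at β10 replicate 4, and LINC02780 is at 0 in all of β10.

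ICAM1 was the most abundant of the smallest-p genes that read higher in Δ133p53β10. It encodes an adhesion receptor for leukocyte integrins and is a textbook target of NF-kappaB, the family of transcription factors that switch on inflammatory genes. It read 12.6, 13.5, 21.1 and 17.2 CPM in Δ133p53β10 and 7.25, 7.50, 6.36 and 9.19 CPM in Δ133p53β5 (chromosome 19, 10271093 to 10286615, plus strand). The clones did not overlap. The log2 difference was 1.09 ± 0.224 with a 95% interval from 0.62 to 1.55 (adjusted p = 0.448, edgeR), and 1.16 without Δ133p53β5 replicate 4 (adjusted p = 0.623). ICAM1 was above control in Δ133p53β10 by 1.60 (adjusted p = 6.73e-05, edgeR), and the value in Δ133p53β5 was 0.51 (adjusted p = 0.163). Clone α2 held 0.528 ± 0.188 CPM and clones α1 and α8 means of 6.51 and 7.63 CPM. An antisense gene, ICAM4-AS1, overlaps the end of ICAM1 and read 3.56, 8.42, 15.0 and 6.06 CPM against 2.6, 3.5, 2.88 and 4.72 CPM. Whether the counting used the strand is not given in the sources used here, so reads of the pair may be mixed.

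Of 39 inflammatory and NF-kappaB genes, 20 were tested, 0 were called and 3 had an unadjusted p under 0.05, ICAM1, LIF and CXCL1, all higher in Δ133p53β10 (the share over all tested genes was 1.5%). LIF, a cytokine of the interleukin-6 family, read 4.72, 5.42, 5.47 and 6.56 CPM in Δ133p53β10 and 3.33, 2.95, 2.20 and 1.85 CPM in Δ133p53β5, without overlap (log2 difference 1.10 ± 0.31, adjusted p = 1, edgeR, and 0.94 without Δ133p53β5 replicate 4, adjusted p = 0.961). CXCL1, a neutrophil chemokine, read 2.19, 2.71, 15.2 and 8.18 CPM against 2.6, 2.64, 3.48 and 3.44 CPM, where replicates 3 and 4 of Δ133p53β10 were high and replicates 1 and 2 lay at or near the Δ133p53β5 values. The median log2 difference over the 20 genes was -0.01, beside 0.04 over all tested genes, and 11 of the 20 were below 0, with TNFAIP2 lowest at -0.88.

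The promoters of ICAM1 and CXCL1 are shown because both genes are known for NF-kappaB sites close to their start. The 250 bases before each start site are from RefSeq (GRCh38.p14, plus strand), with every match to GGNNNTTCC, searched on both strands, in capitals:
ICAM1, chr19:10270870-10271119: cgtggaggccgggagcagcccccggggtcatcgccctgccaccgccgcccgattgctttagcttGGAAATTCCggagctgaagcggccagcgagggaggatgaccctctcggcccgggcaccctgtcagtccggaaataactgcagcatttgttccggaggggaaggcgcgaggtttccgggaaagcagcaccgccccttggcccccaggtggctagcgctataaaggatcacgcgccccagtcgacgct
CXCL1, chr4:73869143-73869392: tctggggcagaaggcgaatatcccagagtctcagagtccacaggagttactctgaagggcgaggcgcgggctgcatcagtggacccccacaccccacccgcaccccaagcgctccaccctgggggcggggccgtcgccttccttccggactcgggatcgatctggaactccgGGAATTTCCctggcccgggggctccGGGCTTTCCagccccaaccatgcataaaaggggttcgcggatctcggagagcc

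The ICAM1 window holds 1 match, which begins at -186 from the start site, and the CXCL1 window holds 2, at -78 and -53. Of 35114 promoter windows of this length 6012 hold a match (17.1%). A match is a description of the letters, and the libraries do not measure binding.

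The remaining genes of the 12 are given more briefly. SESN3, a stress-responsive sestrin, read 1.45, 1.5, 0.789 and 0.166 CPM in Δ133p53β10 and 0.0458 to 0.409 CPM in Δ133p53β5. ALDH1A2, which makes retinoic acid, read 3.35, 2.18, 1.37 and 0.747 CPM against 0.555, 0.727, 0.229 and 0.0513 CPM, without overlap. ESX1, an X-linked homeobox gene, read 0.0415 to 1.10 CPM in Δ133p53β10 and at most 0.154 CPM in Δ133p53β5. CTSL, the lysosomal protease cathepsin L, read 39.3, 41.4, 46.6 and 19.8 CPM against 63.7, 56.3, 62.0 and 60.8 CPM, also without overlap (log2 difference -0.72 ± 0.198, and -0.76 without Δ133p53β5 replicate 4). The adjusted p of these 4 genes was 1 in edgeR. EEF1A1P11 is a processed pseudogene and ENSG00000280441 a long non-coding gene at 8380643 to 8454792 of chromosome 21, and reads of either may be shared with near-identical copies.

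Over all tested genes the 4 libraries of Δ133p53β10 lay above all 4 of Δ133p53β5 at 86 genes (0.478%) and below at 92 (0.511%). In random order the 8 libraries of a gene would part fully, in either direction, with a probability of 0.0286 (1 in 35). Lack of overlap alone therefore does not set a gene apart. No gene was silent in 1 clone and active in the other: with at most 3 reads in every library of a clone and at least 20 in every library of the other, 0 genes qualified in either direction, and 0 at limits of 1 and 10 reads. LINC02780 fell short of both limits.

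Genes studied in these clones in the published work were next set side by side. All but TRPM2, which was added here, had been named there for differences between Δ133p53 clones and control in these same libraries, so their change from control is not independent evidence. Of 19 such genes, 11 were expressed in both clones at 1.99 CPM or more in every library. For all 11 the 95% interval of the log2 difference between the clones lay within 1.5, and for 8 within 1, and 10 of the 11 were called against control in each clone. Differences ran from -0.34 for ANXA3, an annexin, to 0.54 for STAT6, the transcription factor of interleukin-4 signalling, and from -0.48 to 0.65 without Δ133p53β5 replicate 4, with all 11 intervals within 1.5. STAT6 read 28.4, 31.7, 27.9 and 23.6 CPM in Δ133p53β10 and 18.6, 17.6, 15.8 and 24.5 CPM in Δ133p53β5, where only replicate 4 of each clone overlapped with the other (adjusted p = 1, edgeR). TRPM2, a calcium channel opened by oxidative stress, read 4.14, 8.52, 22.3 and 4.28 CPM in Δ133p53β10, a wider spread than the 9.85, 9.91, 10.5 and 13.9 CPM of Δ133p53β5. TPM2, a tropomyosin of actin filaments, likewise ran from 200 to 700 CPM in Δ133p53β10 and from 224 to 453 CPM in Δ133p53β5. The published work lists TPM2 as increased in Δ133p53β lines, and here it was the gene of the 11 not called against control. The published calls came from a Wald test in DESeq2, so the 2 results rest on different tests. Its log2 fold change from control was 0.73 in Δ133p53β10 (adjusted p = 0.254, edgeR) and 0.64 in Δ133p53β5 (adjusted p = 0.347, edgeR).

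The other 8 genes were nearly without reads in both clones. RIPK4, a kinase of epidermal differentiation, had no read in any of the 8 libraries and 39 to 114 in the control libraries. MGMT, which repairs alkylated guanine in DNA, had 1 read in all in Δ133p53β10 and 3 in Δ133p53β5, against 51 to 123 in each control library. RTL6 had 4 reads in all in Δ133p53β10 and 0 in Δ133p53β5, ADPRH 3 and 0, SPATC1 1 and 0, and LDHAL6FP 0 and 1. NDRG1, a stress and hypoxia response gene, had 3 reads in Δ133p53β10, all in replicate 4, and 0 in Δ133p53β5. SOX9, a transcription factor of progenitor cells, had 0, 1, 0 and 5 reads in Δ133p53β10 and 1, 1, 1 and 0 in Δ133p53β5, while control held 44.3 ± 22 CPM (SD, n = 4). RTL6 and ADPRH, with 4 and 3 reads against 0, were with STAT6 the 3 of the 19 genes with an unadjusted p under 0.05, and the adjusted p of each was 1 (edgeR). With so few reads no fold is given for these genes.

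Cell surface proteins studied in these lines were represented by 8 genes, of which 5 were tested and 0 called, also without Δ133p53β5 replicate 4. The published methods name VEGFR1, encoded by FLT1, and ACVRL1, there also called ALK or ALK1. KDR, another VEGF receptor gene, and the gene ALK were added here. MET, the receptor of hepatocyte growth factor, read 75.7, 27.5, 22.9 and 37.3 CPM in Δ133p53β10 and 67.4, 37.0, 47.2 and 31.5 CPM in Δ133p53β5. EGFR, the receptor of epidermal growth factor, read 133, 44.9, 28.2 and 62.6 CPM against 101, 65.0, 60.1 and 43.1 CPM. In both clones replicate 1 was the highest library for both receptors, and it was the library with the positive length trend. ITGA5, the α subunit of the fibronectin receptor, had a log2 difference of 0.10 with an interval from -0.45 to 0.64, and TFRC, the transferrin receptor, of -0.26 with an interval from -1.5 to 0.98. KDR read at most 0.555 CPM, FLT1 had at most 2 reads and ACVRL1 at most 8 in a library, and ALK had none.

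**Figure D4:**
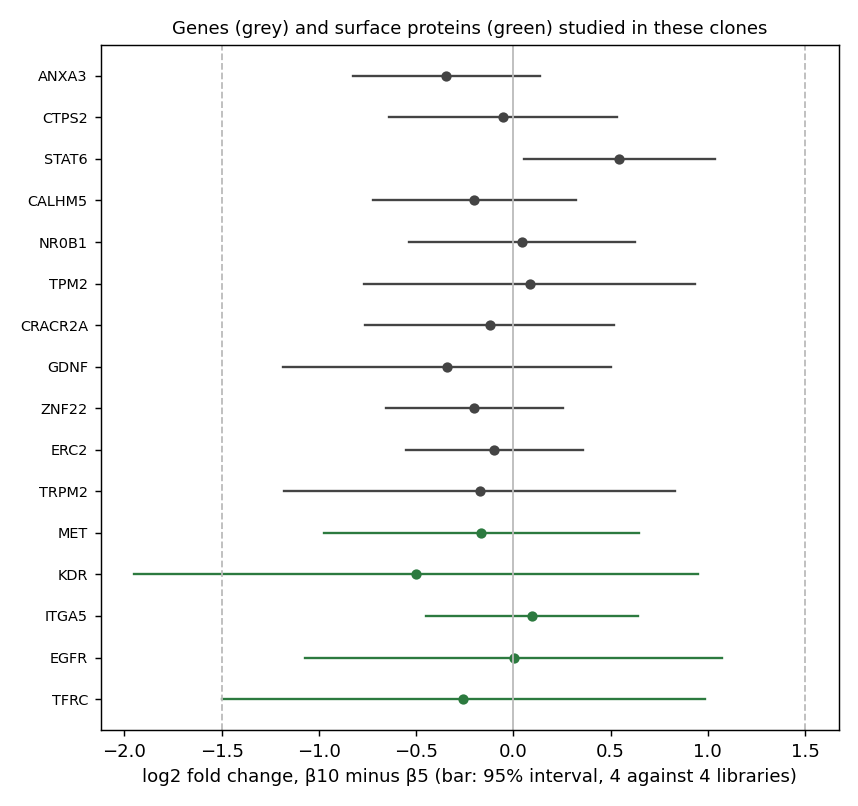
Log2 fold change of Δ133p53β10 minus Δ133p53β5 (x axis) with its 95% interval for the studied genes (grey) and surface proteins (green) that had more than 5 reads in some library and were tested, with dashed lines at the call threshold of 1.5 in each direction. All 11 expressed genes have intervals inside the threshold, while that of KDR, at low reads, reaches -1.95.

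The gene lists also held no called gene. The 22 lists had 538 tested genes in all, of which 0 were called and 13 (2.42%) had an unadjusted p under 0.05, 11 higher and 2 lower, against 1.5% of all tested genes. List medians ran from -0.19 to 0.31, beside 0.04 over all genes. Without Δ133p53β5 replicate 4, 0 list genes were called, 11 had an unadjusted p under 0.05, and medians ran from -0.33 to 0.36. Of 25 p53 target genes tested, 13 were above 0 and 12 below, from -0.49 for BTG2 to 0.51 for BAX, with 22 intervals within 1.5. Over all lists 425 of 538 tested genes (79%) had intervals within 1.5, beside 84.1% of all tested genes. Of 42 cell cycle genes 40 had intervals within 1.5, as did 29 of 30 HOX genes, 32 of 36 interferon-stimulated genes and 30 of 34 hypoxia genes. The share was smaller in others, with 9 of 18 clustered protocadherins, 11 of 17 collagen genes and 17 of 25 integrin and laminin genes. Among 20 cancer-testis antigens 13 had intervals within 1.5, with values from -1.77 for GAGE1 to 1.36 for CTAG1A, genes of families with near-identical copies.

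Single members stood out from their groups by unadjusted p alone. NRP1, a co-receptor of semaphorins and vascular endothelial growth factor, read 5.92, 2.86, 3.21 and 0.083 CPM in Δ133p53β10 and 1.15, 0.682, 0.595 and 0.411 CPM in Δ133p53β5. Replicate 4 of Δ133p53β10 was the lowest of the 8 and the other libraries of Δ133p53β10 were the highest. SLIT3, a secreted guidance ligand, read 0.083 to 0.474 CPM in Δ133p53β10 and 0.597 to 0.824 CPM in Δ133p53β5, without overlap. TGFBI, a matrix protein induced by TGF-β, read 7.54, 5.13, 8.84 and 1.99 CPM against 12.1, 9.32, 16.7 and 8.06 CPM. TFR2, the second transferrin receptor, read 0.207 to 0.581 CPM against 0.128 to 0.205 CPM, without overlap. The adjusted p of each was 1 (edgeR). The 13 mitochondrially encoded protein genes were all above 0, with a median of 0.31, and took 3.88 to 6.23% of counts in Δ133p53β10 and 3.38 to 4.23% in Δ133p53β5, ranges that overlap. Their part in the other results was not tested.

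Expression by chromosome gave no large block of difference. Over 14594 genes that averaged 1 CPM or more and had a known place, chromosome medians of the log2 difference ran from -0.095 on chromosome 5 to 0.135 on chromosome 19, and from -0.167 to 0.239 without Δ133p53β5 replicate 4. Of 256 bins of 10 Mb with at least 20 genes, medians ran from -0.213 to 0.249, and 0 reached 0.5 in either direction. Chromosome 1 was the 1 chromosome whose library medians did not overlap between the clones, with a median difference of 0.114, and among its 1736 tested genes 32 were higher and 8 lower in Δ133p53β10 at an unadjusted p under 0.05, beside 165 and 105 of all 17990 genes. It was picked out of 23 after the medians were seen, and this is a description.

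To place Δ133p53β5 replicate 4, genes were chosen without it and its level was set on a scale from 0 at the mean of the other Δ133p53β5 libraries to 1 at the mean of Δ133p53β10. The plan to use called genes could not be followed, as none was called, and the 200 genes with the smallest p took their place, a choice made after the data were seen. The median place was 0.638, with 121 genes nearer Δ133p53β10 and 79 nearer Δ133p53β5. With the set in the fit the median was 0.801, with the length trend removed 0.735, and within the negative set 0.669. The other 7 libraries were placed in the same way, and only 4 of the 7 fell on the side of their own clone. Medians were 0.231 to 0.465 for Δ133p53β5 and -0.0506 to 0.643 for Δ133p53β10, where replicate 2 alone was above 0.5.

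Single genes divided in the same way. Among the 5 genes with the smallest p in the fit without it, Δ133p53β5 replicate 4 lay nearer Δ133p53β5 at FBXL7 (place 0.355), ICAM1 (0.332), LINC02780 (0.325) and AMPH (-0.509), and near the middle at ENSG00000284703 (0.528). Its 3 reads of LINC02780 and 1 of ENSG00000284703 contrast with none in any library of Δ133p53β10. At SH3GL3, which ranked sixth, it read 0.873 CPM, within the 0.415 to 1.26 CPM of Δ133p53β10 and below the 1.95 to 2.39 CPM of the other Δ133p53β5 libraries. At RHOB it read 33.4 CPM, between 21.8 to 31.0 CPM in Δ133p53β10 and 43 to 53 CPM in Δ133p53β5. On the third principal component, to which it contributed, it lay at 11.35, the furthest of the 8 on the side of Δ133p53β5. The library was thus nearer Δ133p53β10 by its median place over 200 genes. That scale returned only 4 of 7 other libraries to their clone. At FBXL7, ICAM1, LINC02780 and AMPH and on the third component the library was on the side of Δ133p53β5. Over the 50 genes with the smallest p, 24 were nearer Δ133p53β5 and 26 nearer Δ133p53β10. By chi-square per degree of freedom its closest library was Δ133p53β10 replicate 2 (27.7), against 57.5 for Δ133p53β5 replicate 2. That measure also set Δ133p53β5 replicate 1 closer to Δ133p53β10 replicate 1 (18) than to Δ133p53β5 replicate 2 (46.8). These data do not settle which clone Δ133p53β5 replicate 4 came from. Counted in Δ133p53β10, it left 0 genes called and 528 at an unadjusted p under 0.05.

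Replicates 3 and 4 of Δ133p53β10 had the most genes far outside the other libraries. At 4-fold or more outside the range of the other 7 libraries, replicate 3 had 47 genes below and 4 above, and replicate 4 had 27 below and 3 above, against at most 6 on either side in any other library. In replicate 3 the genes furthest below had 0 reads and included non-coding genes and pseudogenes such as OPA1-AS1 and YWHAZP3. The highest were MMP9, a matrix metalloproteinase, at 7.79 CPM against 0.706 to 1.69 CPM, and the mitochondrial transfer RNA gene MT-TS1 at 56.5 CPM against 2.61 to 5.16 CPM. At 2-fold the library had 466 genes below and 239 above, and the median exon length was 1727 bases for those above and 4323.5 bases for those below, against 4304 over all tested genes.

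In replicate 4 of Δ133p53β10, 24 of the 27 low genes were annotated as protein-coding, and they were spread over many chromosomes. PLXNA2, a semaphorin receptor, had 0 reads and 1.37 to 9.09 CPM in the other 7 libraries, but 0 to 0.376 CPM in control. CCND2, a D-type cyclin, had 3 reads (0.125 CPM) against 1.49 to 7.05 CPM, and 0.23 to 0.977 CPM in control. CDCP1, a surface glycoprotein linked to invasion, read 1.45 CPM against 10.7 to 21.9 CPM, and 67.8 to 215 CPM in control. PDLIM1, an actin-binding adaptor, read 2.57 CPM against 18.2 to 62.3 CPM, and 4.07 to 5.79 CPM in control. NLRP2, an inflammasome-related gene, read 1.25 CPM against 9.07 to 17.8 CPM, and 8.64 to 16 CPM in control. Of the 27 low genes 18 lay below every one of the other 23 libraries of the study, and PLXNA2 and CCND2 were not among them. Above the other 7 were MEGF6 at 30.9 CPM against 1.60 to 6.47 CPM, SMN2 at 4.82 CPM against at most 0.787 CPM, and the mitochondrial pseudogene MTATP6P1 at 99.0 CPM against at most 1.89 CPM. SMN2 reached 5.11 CPM in control. MEGF6 and MTATP6P1 lay above all of the other 23 libraries, though α clones reached 15.6 CPM for MEGF6 and 45.7 CPM for MTATP6P1. SMN2 and MTATP6P1 have near-identical copies elsewhere in the genome and are uncertain. None of these 30 genes had an adjusted p under 0.05 between the clones.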

How the data were processed

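Libraries were strand-specific poly(A) RNA-seq, which the authors trimmed with Cutadapt, aligned to hg38 with HISAT2 and counted per gene with featureCounts. The deposited values are raw read counts per gene, 1 column a library, which were used as deposited. The count table holds 60563 named genes and 1 row without a name, which was left out. All per-sample columns were used.

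Genes passing filterByExpr by group (17990, or 18295 without Δ133p53β5 replicate 4) were fitted with edgeR 4.0.16 (R 4.3.3), TMM normalization, 1 group a line and 24 libraries, with 18 residual degrees of freedom, and tested by the quasi-likelihood F test with Benjamini-Hochberg adjustment. limma 3.58.1, DESeq2 1.42.0 (no independent filtering) and sva 3.50.0 gave alternatives. Scripts were tested on simulated data. CPM uses TMM-scaled library sizes, log2 CPM a prior count of 2, intervals 95%. SE is the fold change over the root of F. Positions come from GENCODE on GRCh38. The labels give no batch.

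The members, gene lists and tests were chosen with earlier results of these data known. Genes to be named were the called genes, called list members and the studied genes, and a gene fixed with them is not reported here. None was called, so the 12 genes with the smallest p were named after seeing their values, as were list members under an unadjusted p of 0.05 and the genes far from the other libraries. Depth was 21531599 to 25381731 counts a library, and floors on reads cover counting error only, while intervals of the fit include the spread between libraries.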

Additional observations from a re-analysis of the deposited data

Results flagged for a closer look

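In 57 groups of 4 libraries examined for the genes named by rule or by unadjusted p, 1 had a library far from the other 3 relative to the group's range, where chance flags about 1 in 20. TRPM2 of Δ133p53β5 replicate 4, the library of unclear clone, was 13.9 CPM, above the 9.85 to 10.5 CPM of the others.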

How the results depend on the processing

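The count of called genes was 0 by edgeR and stayed 0 under limma voom, RLE size factors, both other filters, a fold change of 1.5, the 8 libraries alone, either treatment of Δ133p53β5 replicate 4, the replicate block, the set of libraries as a term, the negative set alone, 1 surrogate variable and the length trend removed. DESeq2 called 4, and leaving out single libraries gave 0 to 1, the 1 being FBXL7 without Δ133p53β10 replicate 4. With that library left out and the set as a term, an alternative chosen after seeing the data, 4 were called, FBXL7, CDH12, ARHGAP22 and MAT1A, all higher in Δ133p53β10. The cause was not tested. Without Δ133p53β5 replicate 4 the count was 0 by edgeR, limma voom and DESeq2. The share of genes at an unadjusted p under 0.05 was 1.5% in the main fit, 3.38% with the set as a term and 4.64% with 1 surrogate variable. It was 7.54% with the set as a term and Δ133p53β10 replicate 4 left out. The share of squared distances between the clones ran from 0.0654 to 0.176 with single libraries left out, and no setting brought its exact permutation p under 0.05. The place of Δ133p53β5 replicate 4 ran from 0.52 over 50 genes to 0.94 over 1000. The planned placements on genes called by limma or by adjusted p gave no value, as no gene passed.

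The replicate block left 0 genes called and 126 at an unadjusted p under 0.05, against 109 in the same 8 libraries without it. Deviations of same-numbered libraries from their group means correlated at 0.804, 0.138, -0.128 and -0.334, and 1 of 4 Δ133p53β10 libraries correlated best with its own number, so the numbers were not taken as pairs. AMPH, FBXL7 and SH3GL2 rest on at most 57 reads a library.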
